A study of Mus musculus with 5 samples.

Results

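Strong distal control regions missing in the mutants are 959 stretches of open chromatin that were called clearly in both control forelimb buds and in none of the mutant ones. They were selected on the deposited peak lists. Peaks of all 5 lists on chromosomes 1 to 19 that shared at least 1 bp were merged into 85522 regions. A region was called strong when its deposited −log10 q-value was at least 10 in both controls, and distal when it lay more than 1 kb and at most 100 kb from the nearest end of a protein-coding gene (RefSeq, GRCm38.p6, the coordinates of mm10). Of 7293 strong distal control regions, 959 (13.1%) had no peak in any of the 3 mutant libraries. Because presence and strength in these lists chose the regions, these values are descriptions and carry no test.

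Open DNA was mapped by ATAC-seq, with a transposase that inserts adapters where no nucleosome is in its way. Each library was made from 50K cells of 1 mouse embryo's anterior forelimb pair at E11.5 (40 to 48 somites). The 2 controls had the genotype Prx+/+;Smarcc1c/c, and the 3 mutants PrxCre/+;Smarcc1c/c. All 5 embryos thus carried the conditional Smarcc1 allele on both chromosomes, and only the mutants carried Prx-Cre. The Cre acts in limb mesenchyme, so ectoderm, blood, vessel, nerve and muscle cells in the same tissue would keep Smarcc1. Embryos were genotyped 1 by 1, and the numbers 1 to 3 only name the libraries. The series asks, by its title, whether this complex takes part in repression by GLI proteins.

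BAF155, the product of Smarcc1, belongs to the core of BAF (SWI/SNF) complexes, which use ATP to slide and evict nucleosomes. BAF complexes are known to hold many enhancers open, together with the transcription factors that bind there. Promoters, and CpG-rich promoters above all, have further ways of staying free of nucleosomes. In the limb bud, enhancers can lie far from their gene, often inside the introns of another one, so the nearest gene named below need not be the target.

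For a few of the regions the DNA itself can be shown. No genome was used here, and the sequences below come from RefSeq windows of 300 bases around annotated transcript starts (250 before to 50 after, GRCm38.p6). Of the 925 missing regions on chromosomes for which windows were at hand, 18 (1.95%) lay over such a window, against 1104 of 4530 kept regions (24.4%), those with a peak in every mutant. With the lower of the 2 control −log10 q-values at 10 to 12, these shares were 0.976% and 9.07%. Stretches of 160 bases from 5 of the 18 are printed 5′ to 3′ as examples chosen for their motif matches, and 1 kept region follows. Capitals mark letters of any of the 17 motifs searched, on either strand.
Gm40093, chr3:93597510-93597669, minus strand: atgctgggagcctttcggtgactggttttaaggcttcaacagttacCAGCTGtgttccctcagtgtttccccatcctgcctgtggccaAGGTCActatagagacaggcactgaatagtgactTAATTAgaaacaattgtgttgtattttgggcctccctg
Limch1, chr5:66968318-66968477, plus strand: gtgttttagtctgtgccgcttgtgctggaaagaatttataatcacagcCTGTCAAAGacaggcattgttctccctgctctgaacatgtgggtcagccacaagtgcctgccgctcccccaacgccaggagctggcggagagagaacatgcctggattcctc
1700054K19Rik, chr6:112210598-112210757, plus strand: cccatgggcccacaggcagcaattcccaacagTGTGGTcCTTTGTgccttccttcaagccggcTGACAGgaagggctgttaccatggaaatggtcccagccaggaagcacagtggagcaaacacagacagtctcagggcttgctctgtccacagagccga
9330159F19Rik, chr10:29211408-29211567, plus strand: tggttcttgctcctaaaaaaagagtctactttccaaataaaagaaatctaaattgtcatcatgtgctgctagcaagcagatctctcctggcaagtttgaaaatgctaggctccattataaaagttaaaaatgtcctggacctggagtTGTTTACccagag
Stra6l, chr4:45848706-45848865, plus strand: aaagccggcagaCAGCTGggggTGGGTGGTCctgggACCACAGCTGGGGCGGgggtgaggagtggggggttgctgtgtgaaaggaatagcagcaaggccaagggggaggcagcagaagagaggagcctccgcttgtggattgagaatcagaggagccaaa
2810429I04Rik, chr13:3478122-3478281, plus strand: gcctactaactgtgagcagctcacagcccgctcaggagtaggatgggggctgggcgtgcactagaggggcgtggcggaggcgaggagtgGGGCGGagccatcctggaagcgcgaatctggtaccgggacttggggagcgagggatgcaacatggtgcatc

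The first belongs to the missing region with the highest control 1 value among the 18, at the start of the lncRNA gene Gm40093, 32.4 kb from S100a10. Its folds were 10.1 in control 1 and 6.47 in control 2. The stretch holds a CAGCTG E-box, the nuclear receptor letters AGGTCA and the LIM homeodomain letters TAATTA. The Limch1 stretch, in a gene of an actin-linked protein, joins the MEIS letters TGACAG and the LEF/TCF letters CTTTGA in 1 run, both on the opposite strand, so these matches overlap. The stretch at the lncRNA gene 1700054K19Rik holds the RUNX letters TGTGGT, the SOX letters ACAAAG (on the opposite strand) and TGACAG. At 9330159F19Rik the capitals are the forkhead letters TGTTTAC. At Stra6l, a gene of a retinol-binding protein receptor, the GLI letters GACCACCCA and the RUNX letters TGTGGT both stand on the opposite strand. It also holds the E-box CAGCTG at 2 places, of which 1 overlaps the RUNX match, and the SP/KLF letters GGGCGG. The summits of both controls lie outside this Stra6l stretch. The kept region at 2810429I04Rik holds a single GGGCGG match, and its strongest control summit lies outside the printed stretch. Of the 19 stretches read at missing regions 4 held none of the motifs, at Pla2g4a, Sertad4, Gm6471 and the second Stra6l window. Those 19 had 35.6% to 62.5% G+C. The printed kept stretch, at 65%, was the highest of 5 kept stretches read, and the others, from 51.9%, lay within that range.

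These few windows were poor in CpG, but the sets compared also differ in gene type. A start of a protein-coding gene was covered by 7 of the 18 missing regions and by 817 of the 1104 kept ones. The 19 windows over the 18 missing regions had a median G+C content of 48.7% (39% to 57%), and 0 of 19 exceeded 60%. Of the 1431 windows over kept regions 50.8% exceeded 60%, with a median of 60.3%, and of all 31396 windows 29.2% did, with a median of 53%. The median observed-to-expected CpG ratio was 0.211 over missing and 0.706 over kept regions. GGGCGG, the SP/KLF letters, stood in 3 of 19 windows (15.8%), in 59.9% of windows over kept regions and in 36% of all windows. TGACAG stood in 8 of 19 (42.1%), against 13.8% over kept regions and 19% of all windows, and CAGCTG also in 8 of 19, against 15.3% and 16.3%. GACCACCCA stood in 2 of 19, which are the overlapping Stra6l windows of 1 region, in 0.28% of windows over kept regions and in 0.255% of all windows. ETS (CCGGAAGT) and T-box (AGGTGTGA) letters stood in none of the 19. With 19 windows these shares are coarse, and most missing regions have no window, so they do not describe the 959 as a whole.

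A microRNA hairpin lay within 1 missing region and within 22 kept ones. The missing one (chr3:115979066-115980026, folds of 5.37 and 4.98) lies inside the zinc transporter gene Slc30a7. Its mature RefSeq sequence is shown with the seed, bases 2 to 8, in capitals.
mmu-miR-669n, chr3:115979905-115979924, plus strand: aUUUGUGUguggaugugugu

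The missing regions stood well above the calling threshold in both controls, but at the lower end of the strong distal regions. In control 1 their −log10 q-values ran from 10.1 over a median of 14.0 to 50.6, and in control 2 from 10.6 over 15 to 51.2. Their fold over background, the authors' value for each peak, had a median of 5.72 (4.85 to 12.1) in control 1 and of 5.25 (4.45 to 10.5) in control 2. Kept regions had medians of 7.28 and 6.47. The folds correspond to a median of 32 and 38 overlapping fragments at the summit, and to at least 27 and 32. The weakest summits called in mutants 1, 2 and 3 held 15, 14 and 14 fragments, at folds of 2.47, 2.46 and 2.52. A region without a mutant peak can therefore still be open below those levels.

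**Figure D1:**
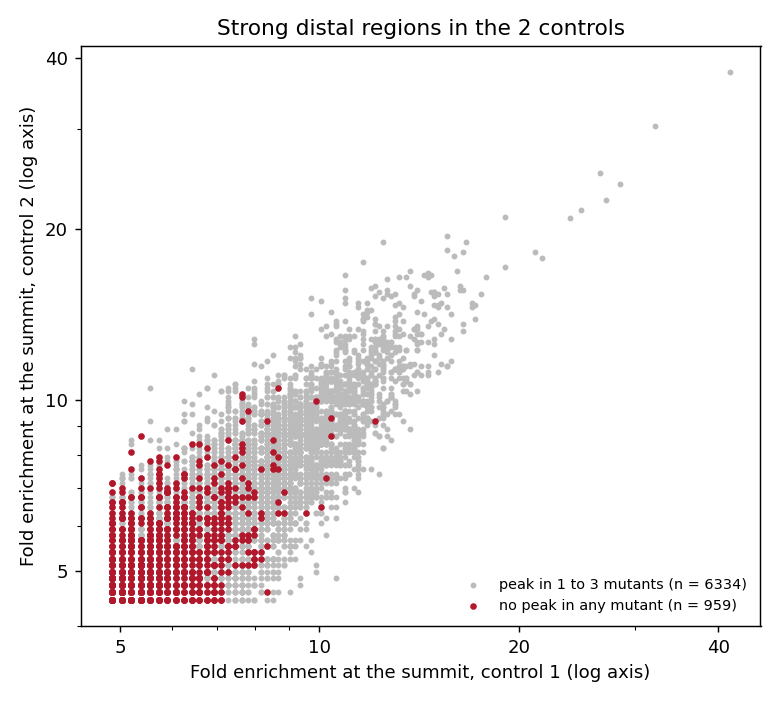
Fold over background of the 7293 strong distal regions in control 1 (x, log axis) and control 2 (y, log axis), 1 point per region. The 959 regions with no mutant peak, in red, lie among the lower values, between 4.85 and 12.1 on x and between 4.45 and 10.5 on y, and share that range with many regions that kept a peak.

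How often a region was missing fell with its strength in the controls. With strength taken as the lower of the 2 control −log10 q-values, 423 of 1803 regions (23.5%) were missing at 10 to 12, 307 of 1552 (19.8%) at 12 to 15 and 153 of 1345 (11.4%) at 15 to 20. At 20 to 30 it was 72 of 1448 (4.97%), at 30 to 50 4 of 924 (0.433%), and above 50 0 of 221. Just inside the threshold lay regions within Cdk6, within Cdk14 and near Lyzl1, all with a lower value of 10.1, which 99 missing regions shared. Just outside it, at 9.88, lay regions within Frmd4a, Adam22 and Mrps28. A further 315 distal regions without a mutant peak had lower values of 9 to 10, against 242 members at 10 to 11, so the threshold cuts through a continuous range.

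**Figure D2:**
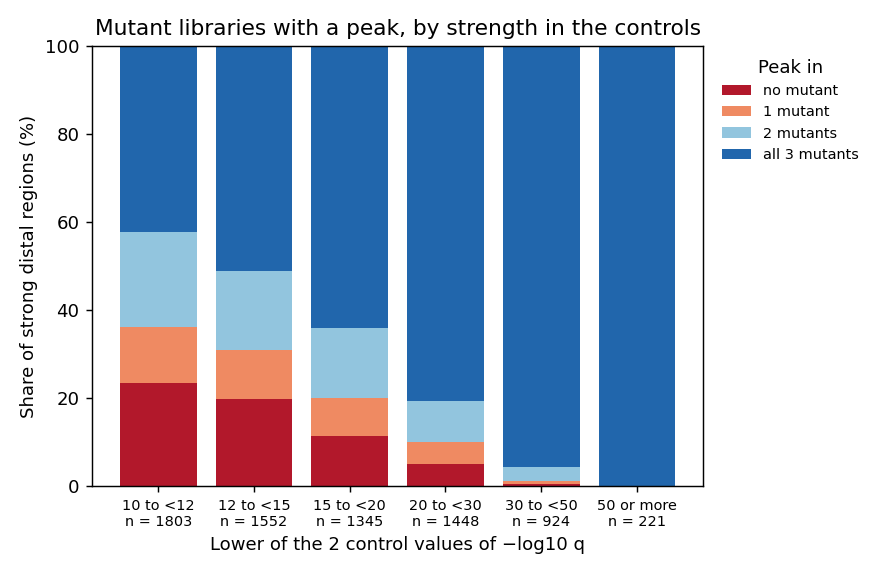
Share of strong distal regions (y, percent) with a peak in no, 1, 2 or all 3 mutants, by the lower of the 2 control −log10 q-values (x). The red share falls from 23.5% in the weakest class to 0 in the strongest, where all 221 regions were found in every mutant.

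The mutants differed among themselves in how many strong distal control regions they lacked. Mutant 1 had no peak at 1325 of the 7293 (18.2%), mutant 2 at 1477 (20.3%) and mutant 3 at 2320 (31.8%), a mean of 23.4% ± 7.3 (SD, n = 3). Between the controls the same measure was small: of the 10439 distal regions strong in control 1, 2.12% had no peak in control 2, and of the 9146 strong in control 2, 1.17% had none in control 1. The mutants lacked 26.5%, 27.9% and 42.8% of the first set and 24.2%, 26% and 38.2% of the second. In the other direction, strong distal regions of a mutant had no peak in a given control in 0.47% to 0.969% of cases. Between mutants this ranged from 1.41% to 12.5%, the highest for regions of mutant 2 in mutant 3. The count of regions strong and distal in all 3 mutants and without a peak in either control was 0.

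Mutant 3 also had the shortest list, 26581 autosomal peaks, against 35988 and 42185 in mutants 1 and 2 and 68009 and 59252 in controls 1 and 2. Strong distal peaks numbered 10744 and 9530 in the controls, against 4573, 5080 and 2751 in mutants 1 to 3, a mean 59.2% lower, with every mutant below both controls. These peaks, like the totals, hold the ones the rule used, so no test is given for either. The planned exact permutation test, two-sided, of the total number of autosomal peaks returned p = 0.2 (n = 2 and 3), the smallest p that this test can give at this size, so it could not pass a threshold. The background level, 4.77 and 6.42 fragments per position in the controls, against 5.48, 5.09 and 4.95 in mutants 1 to 3, overlapped between genotypes. With every list shortened to the 26581 strongest peaks, 1367 regions met the rule, 18.7% of the strong distal ones. The strong peaks of controls 1 and 2, 24674 and 22574, all fit within that length. The cut thus took weaker peaks only, and none from mutant 3, so it could hardly lower the count. The part of list length in the count was not tested.

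The share missing rose with distance from gene ends. Within 1 kb of a gene end, 39 of 10345 strong control regions (0.377%) had no peak in any mutant, and beyond 100 kb 528 of 1750 (30.2%) had none. These outer groups were not matched for strength. Among the strong distal regions the share was 5.33% at 1 to 5 kb, 10% at 5 to 10 kb, 12.8% at 10 to 25 kb, 17.5% at 25 to 50 kb and 22.2% at 50 to 100 kb. Median strength was nearly the same in these distance classes, 15.7 to 16.5. The order was also seen at like strength: at lower −log10 q-values of 10 to 15 the share ran from 9.71% to 34.3% between the nearest and the farthest class, and at 15 to 20 from 5.7% to 17.8%. Distal regions below the strength threshold in 1 or both controls had no mutant peak in 8232 of 17363 cases (47.4%).

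**Figure D3:**
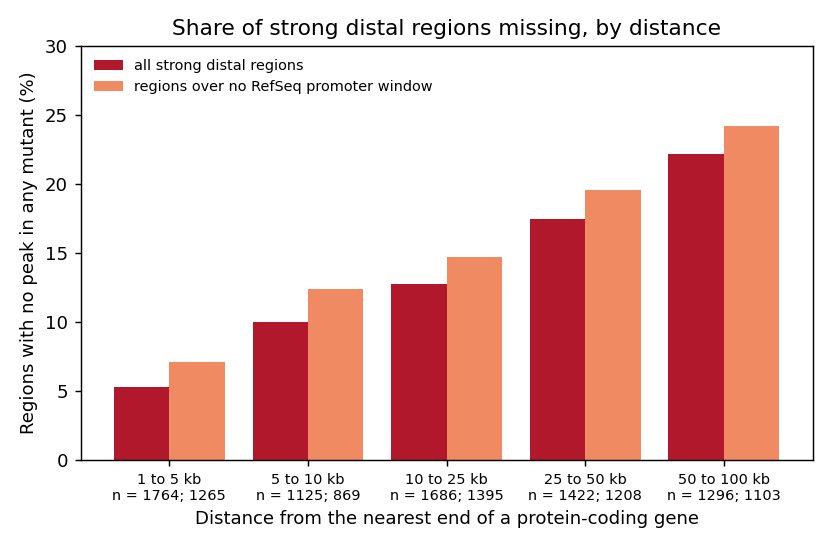
Share of strong distal regions with no peak in any mutant (y, percent) by distance from the nearest gene end (x), for all regions (red) and for regions over no RefSeq start window (orange). The share rises from 5.33% to 22.2% and, without start windows, from 7.11% to 24.2%.

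Part of the nearby regions are starts of further transcripts, and these were rarely missing. Of 1201 strong distal regions over a RefSeq start window, 18 (1.5%) were missing, against 907 of 5840 (15.5%) over none. Leaving these out, the share still ran from 7.11% at 1 to 5 kb to 24.2% at 50 to 100 kb. The missing regions had a median distance of 29.0 kb and the kept ones of 11.1 kb. As merged regions they were also narrower, 799 against 1222 bp, and at lower −log10 q-values of 10 to 12, 731 against 882 bp. Merged kept regions take in mutant peaks too, which can widen them. The peaks of controls 1 and 2 alone had median widths of 741 and 648 bp in missing regions. In kept regions these were 1054 and 944 bp, without a match for strength.

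Position relative to the gene differed little. Of the missing regions 536 (55.9%) lay inside a protein-coding gene and 423 between genes, and of the kept ones 57.6% lay inside. The genes that held missing regions were longer, with a median of 158 kb against 67.4 kb for kept regions. A region inside a gene and far from both of its ends needs a long gene, and distance was not matched here. Of those outside their nearest gene whose strand is known, 47.5% of missing and 48.1% of kept regions lay on its 5′ side. Exons and introns could not be told apart with the gene table used. By chromosome the missing share ran from 7.62% on chromosome 7 to 18.4% on chromosome 16, with a median of 13.1%.

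Missing regions had fewer close neighbours. Another region shared by the controls lay within 10 kb of 44.1% of them and of 63.9% of kept regions. Without control 2 the first share was 61.0% and without control 1 52.0%, so it rests on requiring both controls. The nearest other peak lay a median of 7.83 and 9.81 kb away in the controls and 26.5, 28.9 and 37.6 kb away in mutants 1, 2 and 3. For kept regions these medians were 3.74 and 4.50 kb, and 7.21, 5.97 and 11.6 kb. For both sets the distance was longer in every mutant than in either control.

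Weaker distal regions, which the rule did not select, were counted near the missing and the kept regions in each mutant. Of 1443 weaker distal control regions within 50 kb of a missing region, mutants 1, 2 and 3 held 29.3%, 30.1% and 16.2% (25.2% ± 7.8, SD, n = 3). Of 5978 near kept regions alone they held 45%, 50.3% and 23.5% (39.6% ± 14.2, SD, n = 3). Each mutant held a smaller share near missing regions, while the median lower −log10 q-value was 5.30 in both sets. Over all 17363 weaker distal control regions mutants 1, 2 and 3 held 38.2%, 40.5% and 21.3%. The set near kept regions alone leaves out every region near a missing one, and distance from gene ends was not matched. The strong distal regions themselves were sorted by the rule, and their clustering is a description. Over all their pairs within 50 kb of each other, 158 of 657 neighbours of a missing region (24%) were missing too, against 325 of 5306 neighbours of a kept one (6.13%). Still, 231 of the 959 (24.1%) had a kept strong distal region within 50 kb, and 133 (13.9%) another missing one.

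Gene ends near the missing regions were mostly still open. Mutants 1, 2 and 3 held peaks at 90.7%, 90.5% and 82.1% of the gene-end regions within 50 kb, against 91.2%, 93.6% and 81.9% near kept regions alone. Over all gene-end regions of the controls the shares were 91.3%, 93.3% and 83.1%. No mutant held a peak at 36 of 560 near missing regions (6.43%), at 203 of 4649 near kept regions alone (4.37%) and at 4.61% of all. The 959 regions have 842 nearest genes. Of these, 668 had a gene-end region in both controls, and at 590 (88.3%) it was found in all 3 mutants. It was found in mutants 1, 2 and 3 at 95.1%, 94.8% and 89.5%, and at 25 genes in none. For the nearest genes of kept regions the share in all mutants was also 88.3%, and at 77 of 2558 genes the gene-end region was found in none.

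Most of these genes, 745, had 1 missing region, 83 had 2 and 14 had 3 or more. Counting genes with only 1 strong distal region, where the rule fixes it, no strong distal region had a peak in any mutant at 441 of the 842. Among the 14, this held for Slc1a2, a glutamate transporter gene, Lrch1, Ntrk2, Lyzl1 and Gm14461, each with 3 of 3 missing.

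Gli2, an activator of Hedgehog target genes, had 5 of 15 strong distal regions missing, and Dhrs3, which turns retinal back into retinol, 5 of 6. The missing Gli2 regions fall into 2 places (chromosome 1). On the 3′ side, 56.9 and 34.1 kb from the gene, lie chr1:118776571-118777165 (folds of 4.85 and 4.85 in controls 1 and 2) and chr1:118798977-118799993 (6.24 and 6.06). Inside the gene lie chr1:118878008-118879336 (5.37 and 4.99), chr1:118916262-118917027 (5.03 and 5.12) and chr1:118917500-118918424 (5.03 and 4.72). The strongest region of the gene was kept (chr1:118824795-118827071, folds of 12.3 and 12.7), with folds of 7.41, 8.05 and 6.22 in mutants 1, 2 and 3. A region as weak as the missing ones, chr1:119087475-119087962 on the 5′ side (4.85 and 4.99), was nevertheless called in all mutants at 3.55, 3.61 and 3.53. The other kept regions at Gli2 had folds of 7.11 to 12.3 in control 1, above every missing one. In control 2 they had 5.12 to 12.7 and overlapped the missing ones.

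At Dhrs3 the 5 missing regions lie 21.2 to 96.3 kb beyond its 3′ end, all inside the annotated span of Vps13d, a lipid transfer protein gene. The one with the highest fold in control 1, chr4:144980588-144981910, had folds of 7.28 and 5.93, and chr4:144949428-144950537 had 6.76 and 6.06. The kept region on the 5′ side, chr4:144882649-144883750, also lies inside that span and had folds of 7.28 and 10.4, and of 5.55, 4.60 and 3.36 in the mutants. In control 1 a missing and the kept region thus had the same fold.

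Chd7, which encodes another ATP-dependent chromatin remodeller, had 4 of 9 regions missing and 3 found in a single mutant. The strongest missing one, chr4:8810556-8811609 within the gene, had folds of 8.84 and 6.87. It stood above the only region kept in every mutant, chr4:8910630-8912038, with folds of 5.20 and 4.85 in the controls, against 4.78, 5.58 and 3.70 in mutants 1 to 3. Ppp3ca, a calcineurin subunit gene, had 4 of 7 missing, of which chr3:136763563-136764613 reached 7.11 and 6.87. App had 3 of 4 missing, all inside the gene and 46.5 to 68.0 kb from its end, with folds of 6.24, 5.55 and 5.20 in control 1 and of 6.47, 5.52 and 7.55 in control 2. Trabd2b, Bdnf, Frmd4a and Sash1 had 3 missing of 8, 6, 5 and 5.

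**Figure D4:**
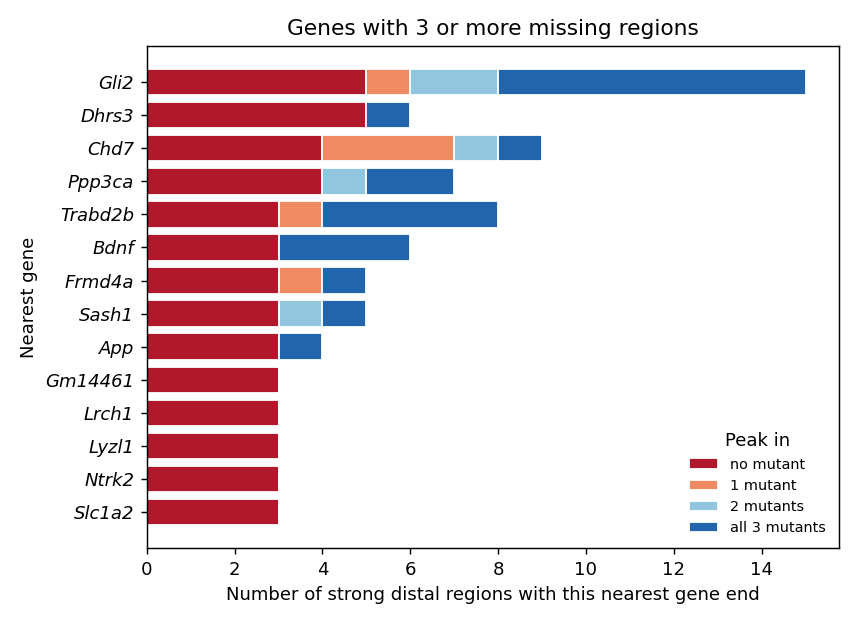
Number of strong distal regions (x) at each of the 14 nearest genes with 3 or more missing regions (y), coloured by how many mutants held a peak. Gli2 has the most regions, 15, with 5 missing and 7 kept, while all 3 regions of Gm14461, Lrch1, Lyzl1, Ntrk2 and Slc1a2 are missing.

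The strongest missing region of all lay 29.4 kb on the 5′ side of Rapgef5, an exchange factor of RAP proteins (chr12:117486277-117487091), with folds of 12.1 and 9.16. Rapgef5 had 3 further strong distal regions, all kept. A region 32.2 kb from Itpr1, an inositol trisphosphate receptor gene (chr6:108583335-108584497), reached 10.4 and 9.30. Chmp4c, of the ESCRT machinery, followed with 10.4 and 8.62 at chr3:10386756-10387882, only 3.12 kb from its end. Etv1, an ETS factor of the FGF response, had both of its regions missing, at 9.88 and 9.97 (chr12:38843539-38844361) and at 7.63 and 6.47 (chr12:38815664-38816615). Dpf3, itself a BAF subunit gene, also had both missing: chr12:83481399-83481891 with 8.15 and 7.55, and chr12:83448888-83449762 with 4.85 and 5.93. The 20 strongest also included regions near Gad1, Tacr1, Cdh11, Enpp6, Serpine2, Stk25, Pde3a, Slc5a3, Gipc2, Kyat3, Atp2b1, Cdh19, Ccdc190 and Fibin. In these 20, folds in control 1 ran from 7.80 to 12.1. The regions nearest to Stk25 and Slc5a3 lie inside other genes, Farp2 and Mrps6.

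By gene list, the 478 strong distal regions with a list gene as nearest gene had 78 missing (16.3%), against 881 of 6815 for all other genes (12.9%) and 13.1% over all. Lists were chosen with earlier results known and are described by counts alone. Lists of limb patterning lay below 13.1%. Limb mesenchyme and forelimb identity genes had 1 of 39 missing, within Zfhx4, but only 20 of the 39 (51.3%) were found in all mutants, against 4691 of 7293 over all. Proximal and anterior genes had 2 of 25 missing, 1 of them near Pax9, and posterior and distal genes 0 of 17. Chondrogenesis, tendon and connective tissue genes had 3 of 30, at the cartilage factor Sox5, the matrix gene Postn and Runx1.

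Signalling lists lay near the share of all regions. Hedgehog pathway and target genes had 11 of 66 missing (16.7%), with 5 at Gli2 and 1 each at Gli3, the co-receptor genes Boc and Gas1, Fmn1, Foxc1 and Cntfr, and 6 of 51 (11.8%) without Gli2. The Gli3 region, chr13:15445746-15446642, lies 17.1 kb on the 5′ side and had folds of 6.94 and 5.12. BMP and TGF-beta genes had 6 of 45 (13.3%), with 2 of 6 at the ligand gene Gdf6 and 1 each at Bmp2, Inhba, Smad1 and Tgfbr2. FGF and receptor kinase genes had 6 of 39 (15.4%), at Etv1, Fgf2, the receptor gene Fgfr2, Dusp6, a feedback phosphatase, and Rapgef5. WNT genes had 7 of 40 (17.5%), 1 each at Wnt5a, its receptor Ror2, Fzd4, Fzd8, Fzd10, Znrf3 and Tcf7l2. Notch genes had 3 of 25 (12%), 2 of them within the co-activator gene Maml2 and 1 within Notch1. Rbpj, the transcription factor gene of Notch signalling, is not on the list and had 2 of 4 missing.

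Retinoic acid and nuclear receptor genes had 9 of 28 missing (32.1%), with 5 of the 9 at Dhrs3. The others lay within Aldh1a2, which makes retinoic acid (chr9:71241744-71242519, folds of 5.55 and 5.39, its only strong distal region), within Rora and Esrrg, and near Nr2f1. Without Dhrs3, 4 of the list's 22 other regions (18.2%) were missing. Axon guidance and adhesion genes had 15 of 56 missing (26.8%), spread over 14 genes. They were Sema3a, Sema3c, their receptor Nrp1, Slit2, Robo2, Epha7, Ephb2, Efnb2, Unc5c, Cdh4, Cdh11, Ncam1 and Pcdh17 with 1 each, and Astn2 with 2 of 2. Chromatin genes had 5 of 29 (17.2%), of which 4 were at Chd7 and 1 at Bcl11a, and 1 of 20 (5%) without Chd7. Dpf3 is not on this list.

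**Figure D5:**
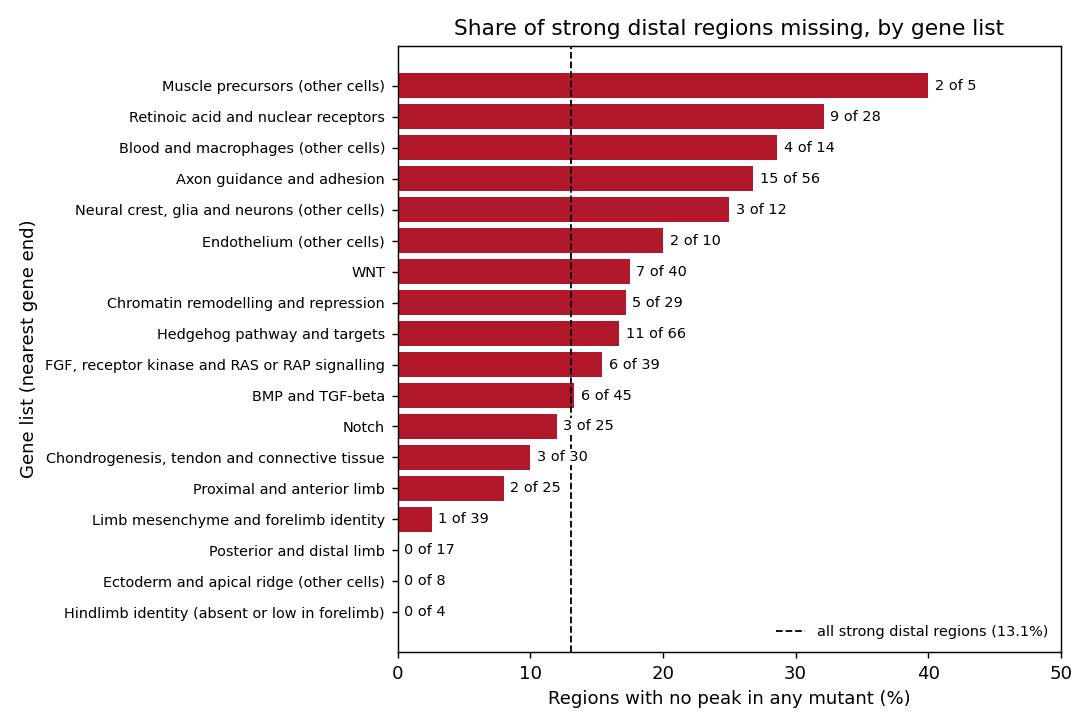
Share of strong distal regions with no mutant peak (x, percent) for each gene list (y), with the number missing of the number of regions beside each bar. The dashed line is the share over all strong distal regions, 13.1%. Retinoic acid (9 of 28) and axon guidance genes (15 of 56) lie to its right and limb mesenchyme genes (1 of 39) to its left, and lists with few regions move by large steps.

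Genes listed for other cell types in the limb bud also had missing regions, on lists with few regions. Which cells held these regions open is not known. The shares stand against 13.1% over all strong distal regions. Muscle precursor genes had 2 of 5 missing (40%), both at Eya1. Endothelial genes had 2 of 10 (20%), at Erg and Eng. Blood and macrophage genes had 4 of 14 (28.6%), with 2 at Ptprc and 1 each at Gfi1b and Runx1, which is also on the connective tissue list. Neural crest, glia and neuron genes had 3 of 12 (25%), at Tfap2a, Tfap2b and Gad1. Ectoderm genes had 0 of 8 and hindlimb identity genes 0 of 4. Gene-end peaks of marker genes are given for each library, but such a peak need not show that the cell type is present. The hindlimb markers Pitx1 and Tbx4 had one in both controls and in mutants 1 and 2 of these forelimb samples. Pitx1 had folds of 5.72 and 4.18 in the controls, against 3.70 and 4.76 in mutants 1 and 2. Tbx4 had 4.85 and 5.25, against 3.24 and 3.94. The blood marker Klf1 had folds of 13 and 9.57 in the controls, against 7.10, 8.70 and 3.20 in mutants 1 to 3, and the endothelial marker Kdr 7.63 and 5.39 against 4.94, 5.09 and 4.21. Both markers lay higher in each control than in any mutant, as did Smarcc1 below, and the folds are not scaled between libraries. Of the limb mesenchyme markers below, Twist1 was higher in each control by a narrow margin. Msx1 and Prrx2 overlapped between the genotypes, and Prrx1 was higher in the mutants. Spi1, another blood marker, overlapped between the genotypes, with 8.32 and 6.06 against 6.63, 6.41 and 4.71. Of the 4 muscle markers, 4 and 4 had a gene-end peak in the controls, against 2, 4 and 0 in mutants 1 to 3. Of the 3 neural crest markers, 2 and 1 had one in the controls, against 1, 3 and 1 in mutants 1 to 3. Of the 5 ectoderm markers, 3 and 4 had one in the controls and 2 in each mutant. Pecam1, Cdh5, Ptprc and Trp63 had none in any library. The part of cell composition in the missing regions was not tested, and in whole tissue fewer open cells and less open chromatin per cell cannot be told apart.

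Limb mesenchyme markers had gene-end peaks in all libraries except for Prrx2 in mutant 3. Twist1 had folds of 9.19, 8.89, 7.56, 8.87 and 6.73 in controls 1 and 2 and mutants 1, 2 and 3. Prrx1, whose regulatory sequence drives the Prx-Cre transgene, had 9.54 and 9.30 in the controls, against 22.7, 22.7 and 18.5 in mutants 1 to 3. The part of transgene reads in that difference was not tested. The forelimb marker Tbx5 had a gene-end peak in both controls and mutant 1 only, with folds of 3.99, 3.64 and 3.24. Smarcc1 itself had gene-end folds of 10.9 and 10.2 in the controls, against 9.26, 8.38 and 8.41 in mutants 1 to 3, at a place that does not measure the conditional deletion.

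The number of missing regions rests on both controls being required. With control 2 as the only control 1674 regions met the rule, and with control 1 as the only one 2033. Leaving out mutant 1, 2 or 3 gave 1265, 1182 and 1035.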

How the data were processed

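The submitters' processing notes name bcl2fastq 2.20.0, Bowtie2 2.3.5, MACS2 and the build mm10. The version and options of MACS2, duplicate removal and a cut-site shift were not given in the sources used here. Each library has its own narrowPeak list, deposited by the authors and not pooled. Each deposited row gives positions (other values, in bp), a display score, which was not used, a fold enrichment ratio, and the summit's −log10 p-value and its −log10 q-value. The deposited fold ranks peaks within its own library and is not scaled between libraries.

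All deposited folds lay within 0.02 of an even grid, as (pileup + 1) divided by (background + 1) gives, which yielded the fragments at each summit and the background per library. A Poisson p from these differed from the authors' −log10 p-value by at most 1.42e-05 (values under 100). Read numbers are not known, and single peaks have no counting interval.

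Peaks were merged over the lists, distances taken from the region's border to the nearest gene end (20661 protein-coding genes on chromosomes 1 to 19), and RefSeq start windows (31396, with strand, none from chromosome 18) and miRNA tables matched by position. Strand was thus known for 79.6% of coding genes. The planned motif search around summits needs a genome, so only start windows were searched. Nothing was fitted across regions, and the only kind of test is an exact two-sided permutation test over libraries.

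The regions and the gene lists (18 lists, 347 symbols, 342 in the gene table) were chosen with earlier results of these data known. Named genes are the nearest genes of the 20 missing regions with the highest lower −log10 q-value, some of those with 2 or more missing regions, list genes with a missing region, the 3 regions on either side of the threshold, and Smarcc1. A few genes that this rule takes are not reported here. The merging and the rule were tested on simulated data. Python 3.11.15, numpy 2.4.6, pandas 2.3.3, scipy 1.17.1 and matplotlib 3.10.9 were used. Alternatives changed the strength threshold, the overlap, the distance and its limits, the list lengths, the strength measure and the libraries.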

Additional observations from a re-analysis of the deposited data

How the results depend on the processing

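The number and the share of missing regions followed the rule's limits. At a −log10 q-value of at least 5, 15 and 20 in both controls, 4276, 229 and 76 regions were missing, or 26.4%, 5.82% and 2.93% of the strong distal ones. The share was 15.9% when a mutant peak had to cover the strongest control summit, 11.9% with distance taken from that summit, 14.1% and 15.6% beyond 2 and 5 kb, 11.2% up to 50 kb, and 18.7% with all lists at equal length. Without 1 library in turn the number ran from 1035 to 2033 and the share from 14.2% to 19.3%. The number was highest without control 2 (2033) and next without control 1 (1674). Ranking by the mean rank of the fold gave 933 regions, of which 846 were among the 959, and adding the X chromosome gave 965. Over 10 settings the share inside genes was 52.6% to 57.3%, the median width 585 to 940.5 bp and the median distance 27.7 to 37.2 kb. The share with another control region within 10 kb was 36.8% to 61.0%. The share of nearest genes with a gene-end region in all mutants was 83.9% to 93.9%. No paired analysis was possible because the library numbers were given in accession order and the labels pair no samples. Read depth per library is unknown, and a missing peak shows only that the signal did not pass each list's threshold. With 2 controls and 3 mutants the exact permutation test used cannot give p below 0.2.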

Other observations

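Missing regions also lay at Bdnf, a neurotrophin gene, and Ntrk2, the gene of its receptor, which are on none of the lists and were singled out after their values were seen. Bdnf had 3 of 6 strong distal regions missing: chr2:109745788-109746988, 18.7 kb on the 3′ side with folds of 7.11 and 7.41 in controls 1 and 2, chr2:109743245-109743980 beside it with 5.20 and 5.39, and chr2:109578591-109579251, 95.4 kb on the 5′ side with 5.90 and 5.52. Its 3 regions inside the gene were kept, among them chr2:109675841-109676564 with folds of 6.76 and 5.79 in the controls and of 4.78, 5.42 and 7.23 in mutants 1 to 3. Ntrk2 had all 3 regions missing, with folds of 5.90 and 6.20 at the one inside the gene (chr13:59092624-59093246).

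At Jun, an AP-1 factor gene, the 6 strong distal regions all lay on the 5′ side, 20.7 to 91.8 kb away. Of these 2 were missing, 3 were found in 1 mutant and 1 in 2 mutants, so none was found in every mutant. At Gdf6, a BMP ligand gene, 2 of 6 were missing and the other 4 were kept. A missing region inside the gene (chr4:9857433-9858239, folds of 5.90 and 4.45) lay next to a kept one (chr4:9858784-9860382, folds of 6.42 and 6.33 in the controls and of 4.63, 4.76 and 5.55 in mutants 1 to 3). Jun was also chosen after its values were seen.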
